A study of Mus musculus with 24 samples.

Results

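The miR-106b-25 cluster is a group of miRNAs cut from one stretch of RNA, the intron 13 of the gene Mcm7, and 4 of its mature products were followed here: mmu-miR-106b-5p, mmu-miR-106b-3p, mmu-miR-93-5p and mmu-miR-25-3p. They were chosen by name, as products of one transcript of a replication gene, and all 4 were found among the 1009 miRNAs of the expression table. Small RNA was sequenced from the mammary glands (pairs 4 and 5, ground whole) of 24 female C57BL/6 mice, 6 per stage, and the labels give no transgene and no treatment. W10 stands for adult mice aged 10 weeks and P18 for mice pregnant for 18 days. Lac7 mice had been lactating for 7 days, and Inv3 mice were 3 days into involution, the regression of the gland after weaning. The series' design text has these last days the other way round (3 for lactating, 7 for involuting mice), and the labels of the libraries were followed. The W10 mice carry the numbers 1 to 5 and 7, and the mice of the other stages 1 to 6.

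A miRNA is cut from a hairpin in a longer transcript, and one of the strands of the hairpin, the 5p arm or the 3p arm, is usually loaded into an Argonaute protein while the other is mostly degraded. The loaded miRNA finds its target mRNAs mainly through its seed, a short stretch near its 5′ end, so miRNAs with the same seed share many targets. Mcm7 encodes a subunit of the MCM helicase that unwinds DNA for replication, and it is transcribed with E2F factors in dividing cells. The miRNAs of its intron are known to repress inhibitors of the cell cycle, among them the kinase inhibitor Cdkn1a. The mammary epithelium multiplies during pregnancy, secretes milk during lactation and dies back during involution.

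The hairpins lie on chromosome 5, on the minus strand of GRCm38, in the order Mir106b, Mir93 and Mir25 along the transcript. Mir106b spans chr5:138165737-138165818, Mir93 chr5:138165523-138165610 and Mir25 chr5:138165321-138165404, so that all 3 fit in 498 bases. In the protein-coding transcript Mcm7-201 of GENCODE M21, all 3 hairpins sit in intron 13 (chr5:138165162-138165909) of a gene that spans chr5:138164583-138172422. Mir93 and Mir25 also fall in exon 1 of a Mcm7 transcript annotated as a retained intron (chr5:138165052-138165716), and Mir106b does not. The hairpins are shown because one transcript carries all the arms that are compared below. In the 3 sequences (RefSeq, GRCm38.p6), the mature arms are in capitals, the 5p arm first.
Mir106b: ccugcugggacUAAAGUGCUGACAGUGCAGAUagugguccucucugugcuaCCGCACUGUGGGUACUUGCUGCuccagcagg
Mir93: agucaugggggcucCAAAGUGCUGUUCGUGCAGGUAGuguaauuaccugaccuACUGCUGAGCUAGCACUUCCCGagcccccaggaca
Mir25: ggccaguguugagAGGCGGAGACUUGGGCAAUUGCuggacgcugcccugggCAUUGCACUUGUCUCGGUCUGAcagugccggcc

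The mature sequences show which products can act on the same targets. In the sequences (RefSeq, 5′ to 3′), the seed, bases 2 to 8, is in capitals. The first lines are the 4 members, followed by the other arms of Mir93 and Mir25.
mmu-miR-106b-5p: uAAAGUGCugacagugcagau
mmu-miR-93-5p: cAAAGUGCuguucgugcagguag
mmu-miR-25-3p: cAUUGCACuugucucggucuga
mmu-miR-106b-3p: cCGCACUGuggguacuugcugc
mmu-miR-93-3p: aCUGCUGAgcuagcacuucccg
mmu-miR-25-5p: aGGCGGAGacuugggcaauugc

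miR-106b-5p and miR-93-5p share the seed AAAGUGC and differ at 5 of the 21 positions compared. miR-25-3p has the seed AUUGCAC, and the seed of miR-106b-3p, CGCACUG, belongs to no other mature mouse miRNA of the RefSeq table. Several other miRNAs with these seeds come from the paralogous clusters miR-17-92 on chromosome 14 and miR-106a-363 on chromosome X. miR-32-5p comes from chromosome 4, and miR-92b-3p and miR-367-3p come from chromosome 3. Of these miRNAs, 5 are shown because they carry the members' seeds.
mmu-miR-20a-5p: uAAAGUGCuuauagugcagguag
mmu-miR-17-5p: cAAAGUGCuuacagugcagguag
mmu-miR-20b-5p: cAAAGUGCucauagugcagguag
mmu-miR-92a-3p: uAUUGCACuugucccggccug
mmu-miR-32-5p: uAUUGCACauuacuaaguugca
miR-25-3p and miR-92a-3p differ at 3 of 21 positions, and miR-17-5p and miR-106a-5p at 1 of 23, so reads of this last pair are the most likely to be exchanged. miR-92a-3p is cut from hairpins in both paralogous clusters, and its reads cannot be assigned to one of them.

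**Figure D1:**
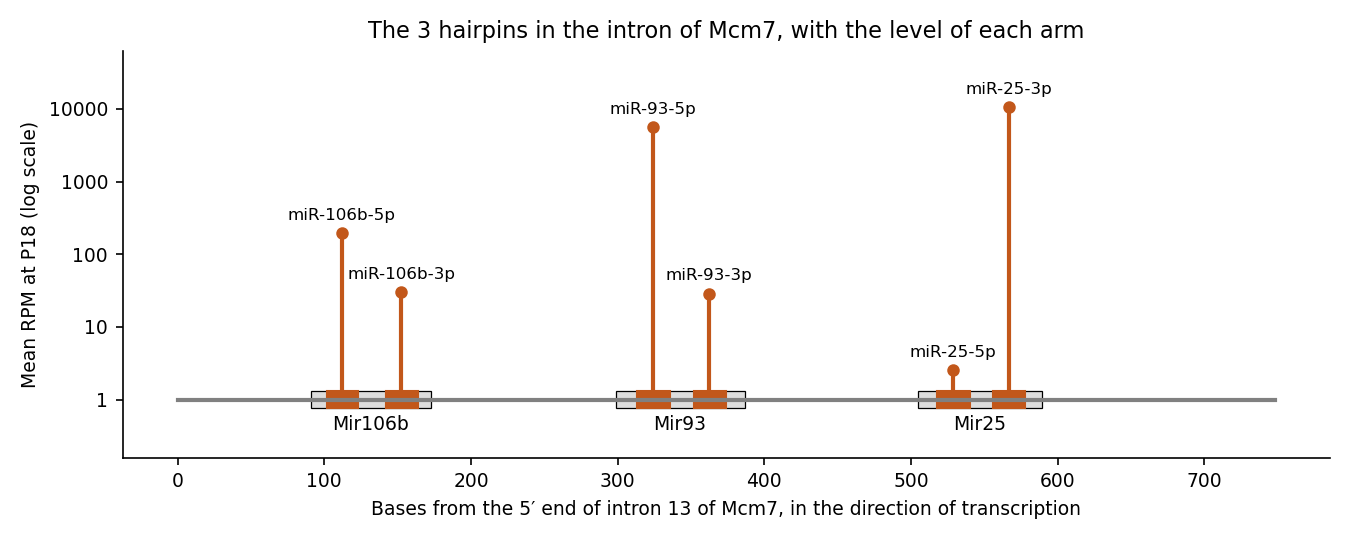
The 3 hairpins (grey boxes) with their arms (orange boxes) along intron 13 of Mcm7, in bases from its 5′ end, and the mean level of each arm at P18 in RPM on a log scale (n = 6 mice). miR-25-3p (10632 RPM) and miR-93-5p (5685 RPM) stand far above the other 4 arms, of which miR-106b-5p is the highest (198 RPM).

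The read levels of the products of this intron were very unequal. How evenly the libraries captured each sequence was not tested, and no precursor was measured. Levels are in RPM, the reads of a miRNA per 1000000 reads on all listed miRNAs, and the libraries held 660346 to 1165321 such reads, so that 3 reads, the most that a count of 0 allows, stand for 2.57 to 4.54 RPM. miR-25-3p was the most abundant member at each stage, with rank 19 of 1009 miRNAs at P18, and miR-93-5p came next, with rank 27. miR-106b-5p had rank 120 and miR-106b-3p rank 217 at P18. The 4 members together made up 1.02% ± 0.0768 (SD, n = 6) of the miRNA reads in W10, 1.65% ± 0.162 in pregnant, 0.725% ± 0.0296 in lactating and 0.875% ± 0.0398 in involuting mice. miR-25-3p alone held 63.9% to 65.8% of the members' sum, as stage means, and miR-106b-3p 0.181% to 0.354%.

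miR-25-3p, which represses among others the pro-apoptotic factor Bim in other tissues, was highest in late pregnancy. It stood at 6050 to 7216 RPM at W10 (median 6350), 9086 to 12731 at P18 (median 10583), 4419 to 4973 at Lac7 (median 4823) and 5381 to 6501 at Inv3 (median 5600). Every P18 mouse was above every mouse of the other stages, and every Lac7 mouse was below them, so only W10 and Inv3 overlapped. miR-93-5p, the main product of the hairpin Mir93, had the same order. It lay between 3147 and 3898 RPM at W10 (median 3497), 4965 and 6314 at P18 (median 5749), 2048 and 2687 at Lac7 (median 2345), and 2778 and 3186 at Inv3 (median 2860). Here too P18 and Lac7 stood apart from the other stages, while the highest Inv3 mouse was within the range of W10. The spread between mice was small for both, with a coefficient of variation of 3.99% to 12.1%.

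miR-106b-5p, the guide strand of the first hairpin, has the seed of miR-93-5p, whose RPM was 19.8 to 38.4 times as high in the stage means. Its level was 71.2 to 145.3 RPM at W10 (median 102), 140.6 to 264 at P18 (median 182), 94.1 to 159 at Lac7 (median 113) and 51.4 to 103 at Inv3 (median 88.5). The median was again highest at P18, but the lowest P18 mouse was below the highest mice of W10 and Lac7. The Lac7 mice lay within the joint range of the W10 and P18 mice. miR-106b-3p, the opposite strand of the same hairpin, was lowest at Lac7. It stood at 28.0 to 42.1 RPM at W10 (median 36.9), 21.8 to 41.8 at P18 (median 28.0), 7.51 to 23.9 at Lac7 (median 11.1) and 13.9 to 33.3 at Inv3 (median 29.3). At Lac7 these values rest on 5 to 18 reads per library, and the coefficient of variation was 48.3%.

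**Figure D2:**
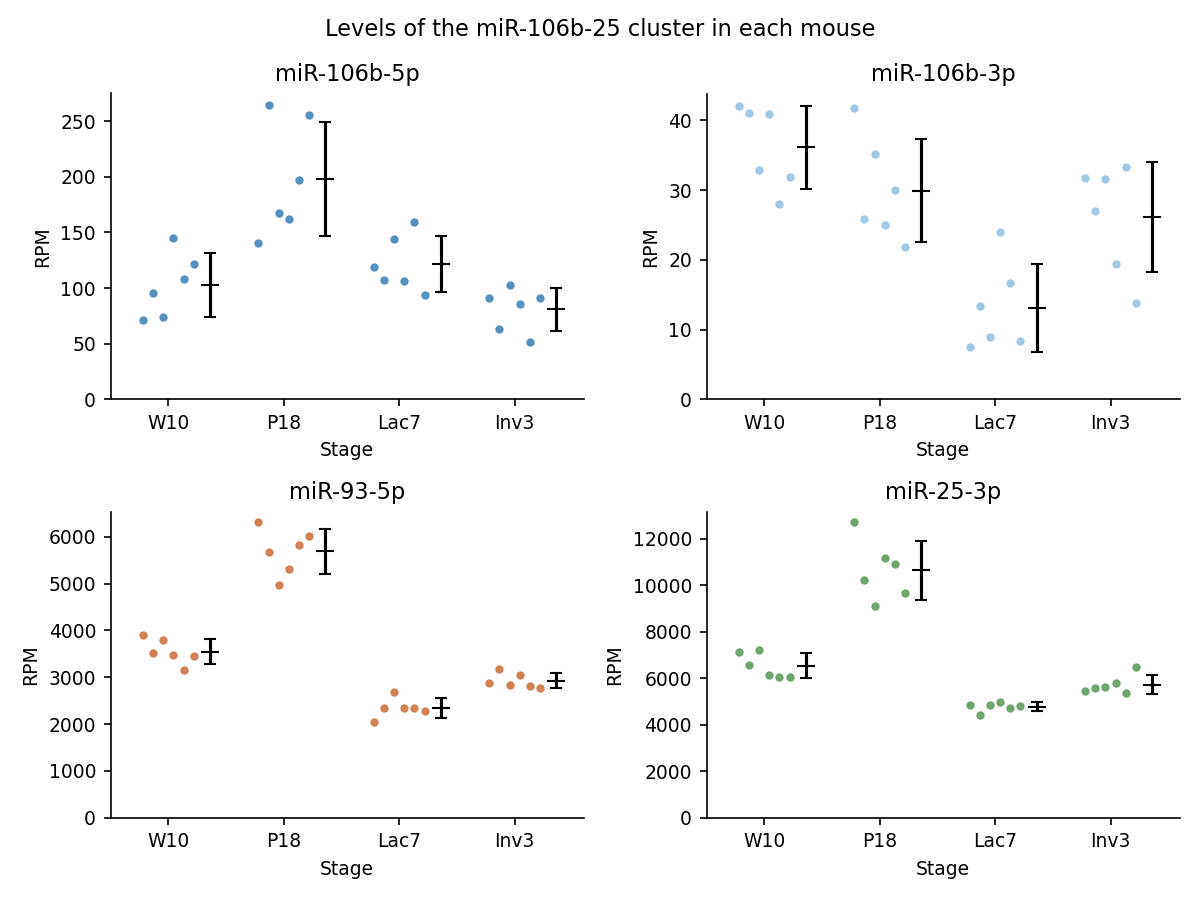
Level of each member in RPM (linear axes from 0) in each of 6 mice per stage (points, in order of mouse number), with the mean and SD (black). miR-93-5p and miR-25-3p are highest at P18 and lowest at Lac7 with no overlap, miR-106b-5p is highest at P18 and lowest at Inv3, and miR-106b-3p is lowest at Lac7.

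Pregnancy against W10 asks how the cluster stood in a gland whose epithelium has multiplied. At P18, 3 of the 4 members were higher than at W10. The test was limma on log2(RPM + 1) over 544 miRNAs and a miRNA passed at an adjusted p (two-sided, Benjamini-Hochberg) below 0.05. Over all 544 the test called 12.1% higher and 29.4% lower at P18. miR-106b-5p was higher by a log2 fold change of 0.95 (SE 0.21, adjusted p = 0.000441), or 1.93-fold in mean RPM. miR-93-5p was higher by 0.68 (SE 0.09, adjusted p = 5.99e-07), or 1.60-fold, and miR-25-3p by 0.70 (SE 0.09, adjusted p = 5.01e-07), or 1.63-fold. The opposite arm miR-106b-3p differed by -0.28 (95% interval -0.82 to 0.26, adjusted p = 0.411), so a fall or a small increase is within its error. The median miRNA moved by -0.32 on this scale. With size factors from the median of ratios, which centre most miRNAs near no change, the same 3 members were higher by 0.93 to 1.20.

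Lactation against pregnancy asks what becomes of the cluster once the epithelium secretes milk. All 4 members were lower at Lac7 than at P18, against 31.4% of all miRNAs tested (13.8% were higher). miR-93-5p fell by 1.28 on the log2 scale (SE 0.09, adjusted p = 2.51e-11), which left 0.412 of its P18 level, and miR-25-3p fell by 1.15 (SE 0.09, adjusted p = 1.01e-10), which left 0.449. miR-106b-3p fell by 1.21 (SE 0.26, adjusted p = 0.000429), and miR-106b-5p by 0.68 (SE 0.21, adjusted p = 0.00773). The median miRNA moved by -0.34. With size factors the fall of miR-106b-5p was -0.38 and no longer passed (adjusted p = 0.105), and DESeq2 on the recovered reads gave -0.39 (adjusted p = 0.0761), so of the 4 decreases this one depended on the scaling.

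Lactation against W10 gave an answer that depended on the scaling for 3 of the 4 members. In RPM, miR-106b-3p was lower at Lac7 by a log2 fold change of -1.49 (adjusted p = 1.77e-05), miR-93-5p by -0.60 (adjusted p = 1.64e-06) and miR-25-3p by -0.45 (adjusted p = 0.000104), and 48.5% of all miRNAs tested were lower and 18.2% higher. The median of all of them was -0.66, so the 2 abundant members fell no more than the typical miRNA. With size factors miR-93-5p differed by -0.04 (adjusted p = 0.704) and miR-25-3p by 0.11 (adjusted p = 0.356). miR-106b-5p went the other way, from 0.27 in RPM (adjusted p = 0.261) to 0.82 with size factors (adjusted p = 0.000538). miR-106b-3p stayed lower under each alternative scaling, and its size-factor difference was -0.96. Of these 3, miR-25-3p alone changed sign between RPM and size factors, and none of the 3 passed under both.

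Involution against lactation asks how the cluster stood once weaning had stopped milk removal. In RPM, 3 members rose and 1 fell between Lac7 and Inv3, while 27.9% of all miRNAs were higher and 18.9% lower. miR-106b-3p rose by 0.99 (SE 0.26, adjusted p = 0.00294), or 1.99-fold. miR-106b-5p fell by 0.60 (SE 0.21, adjusted p = 0.0194), so the strands of one hairpin moved in opposite directions, and this fall was lost without Lac7 mouse 5 or Inv3 mouse 5. miR-93-5p rose by 0.32 (SE 0.09, adjusted p = 0.00446) and miR-25-3p by 0.26 (SE 0.09, adjusted p = 0.0200), close to the median miRNA, which moved by 0.28. Without Inv3 mouse 6 the rise of miR-25-3p was lost. With size factors these last differences were 0.15 (adjusted p = 0.195) and 0.08 (adjusted p = 0.497), and neither passed. The opposite movements of the miR-106b strands held under size factors, at 0.83 for the 3p arm and -0.77 for the 5p arm.

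Against P18, 3 of the 4 members were lower at Inv3, and against W10 1 was. From P18 to Inv3, miR-106b-5p was lower by a log2 fold change of -1.28, miR-93-5p by -0.96 and miR-25-3p by -0.89 (adjusted p of 3.38e-05, 8.49e-09 and 2.06e-08), while miR-106b-3p differed by -0.22 (adjusted p = 0.612). Among all miRNAs 17.6% were lower and 10.8% higher in that comparison. From W10 to Inv3, miR-93-5p alone passed, lower by -0.28 (adjusted p = 0.0150), with 31.2% of all miRNAs lower and 7.90% higher. The median miRNA moved by -0.41 there, and with size factors miR-93-5p differed by 0.10 in the other direction (adjusted p = 0.444).

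**Figure D3:**
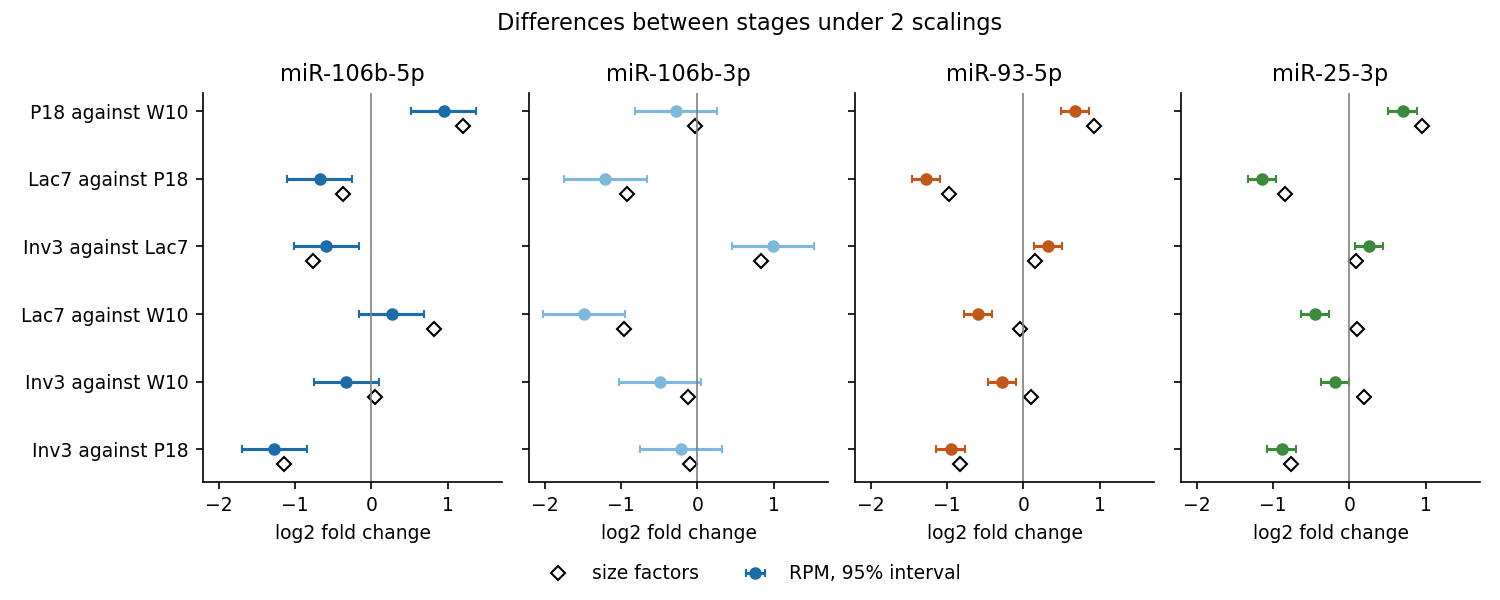
Log2 fold change of each member in the 6 comparisons of stages, from RPM with its 95% interval (filled circles) and after scaling by size factors (open diamonds). miR-106b-5p, miR-93-5p and miR-25-3p are higher at P18 than at W10 and Inv3 in both, while miR-93-5p and miR-25-3p at Lac7 against W10 go from -0.60 and -0.45 in RPM to -0.04 and 0.11 with size factors.

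Ratios within a library do not depend on its scaling, and they showed which members moved together. Each ratio was compared by a two-sided exact permutation test over all assignments of 12 mice to their 2 stages, whose smallest p is 0.00216, with Benjamini-Hochberg adjustment over 24 tests (4 ratios, 6 pairs of stages). The ratio of miR-25-3p to miR-93-5p moved least. Linear means were 1.84 ± 0.0693 (SD, n = 6) for W10, 1.87 ± 0.172 for P18, 2.05 ± 0.196 for Lac7 and 1.96 ± 0.198 for Inv3. No pair of stages passed, and the largest log2 difference was 0.15, for Lac7 against W10 (exact permutation test, adjusted p = 0.0727). Both miRNAs changed by more than 2-fold in RPM over the same mice.

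miR-106b-5p departed from this pair at lactation. Its level as a percentage of miR-93-5p was 1.83 to 4.18% at W10 (median 3.08%), 2.23 to 4.66% at P18 (median 3.38%), 4.12 to 6.77% at Lac7 (median 4.96%) and 1.83 to 3.61% at Inv3 (median 2.99%). Every Lac7 mouse was above every Inv3 mouse, and the ranges of Lac7 and W10 overlapped slightly. The log2 ratio was higher at Lac7 than at W10 by 0.87 (exact permutation test, adjusted p = 0.0208) and than at P18 by 0.59 (adjusted p = 0.0455, exact permutation test), and it was lower at Inv3 than at Lac7 by -0.92 (exact permutation test, adjusted p = 0.0173). With miR-25-3p in place of miR-93-5p, the ratio of miR-25-3p to miR-106b-5p was lower at Lac7 than at W10 by -0.72 (exact permutation test, adjusted p = 0.0445) and higher at Inv3 than at Lac7 by 0.86 (exact permutation test, adjusted p = 0.0173). The first of these was lost when any one of 8 mice was left out, and Lac7 and P18 differed by -0.46 (exact permutation test, adjusted p = 0.156). The difference of miR-106b-5p to miR-93-5p between Lac7 and P18 was near the threshold, and it no longer passed when any one of 9 of the 12 mice was left out.

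Of the 4 ratios, that of the 2 strands of Mir106b shifted most. miR-106b-3p stood at 25.8 to 59.1% of miR-106b-5p at W10 (median 35.6%), 8.56 to 29.7% at P18 (median 15.3%), 6.19 to 22.5% at Lac7 (median 9.72%) and 15.2 to 64.8% at Inv3 (median 32.8%). Every Lac7 mouse was below every W10 mouse, and W10 and Inv3 had much the same range. The log2 ratio was lower by -1.24 at P18 than at W10 (exact permutation test, adjusted p = 0.0346) and by -1.84 at Lac7 than at W10 (exact permutation test, adjusted p = 0.0173), and it was higher by 1.66 at Inv3 than at Lac7 (exact permutation test, adjusted p = 0.0208). W10 and Inv3 differed by -0.18 (adjusted p = 0.680, exact permutation test). The 3p arm had 5 to 47 reads per library, so its ratios carry a large counting error, and the difference between P18 and W10 no longer passed without W10 mouse 1, 2 or 3.

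The minor strand of Mir93 was examined in the same way after these values had been seen. miR-93-3p stood at 14.9 to 40.2 RPM at W10 (median 26.1), 20.7 to 38.0 at P18 (median 26.9), 3.00 to 13.3 at Lac7 (median 6.74) and 11.4 to 31.5 at Inv3 (median 23.1), on 2 to 10 reads at Lac7. It was about as abundant as miR-106b-3p at P18 and likewise lowest in lactation. Its log2 ratio to miR-93-5p, with 1 RPM added to both, was lower by -1.16 at Lac7 than at W10 and higher by 1.21 at Inv3 than at Lac7 (exact permutation tests, adjusted p = 0.0260 for each, over 12 added tests). The other added ratio, miR-106b-3p to miR-93-3p, was higher by 0.68 at Lac7 than at P18 (exact permutation test, adjusted p = 0.0260). Of 287 hairpins with both arms listed, 87 averaged 5 RPM or more in each arm. Among these, the log2 ratio of the minor to the major arm changed from W10 to Lac7 by a median of -0.08 (quartiles -0.82 and 0.61). Mir106b, at -1.75 on this scale, was the seventh lowest of them, and Mir93, at -1.16, came 15th from the lowest. From Lac7 to Inv3 the median was 0.18, and they came 84th and 80th from the lowest. These ranks describe the hairpins and are no test. miR-25-5p, the minor strand of Mir25, had 0 to 4 reads per library and was too low for a ratio.

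**Figure D4:**
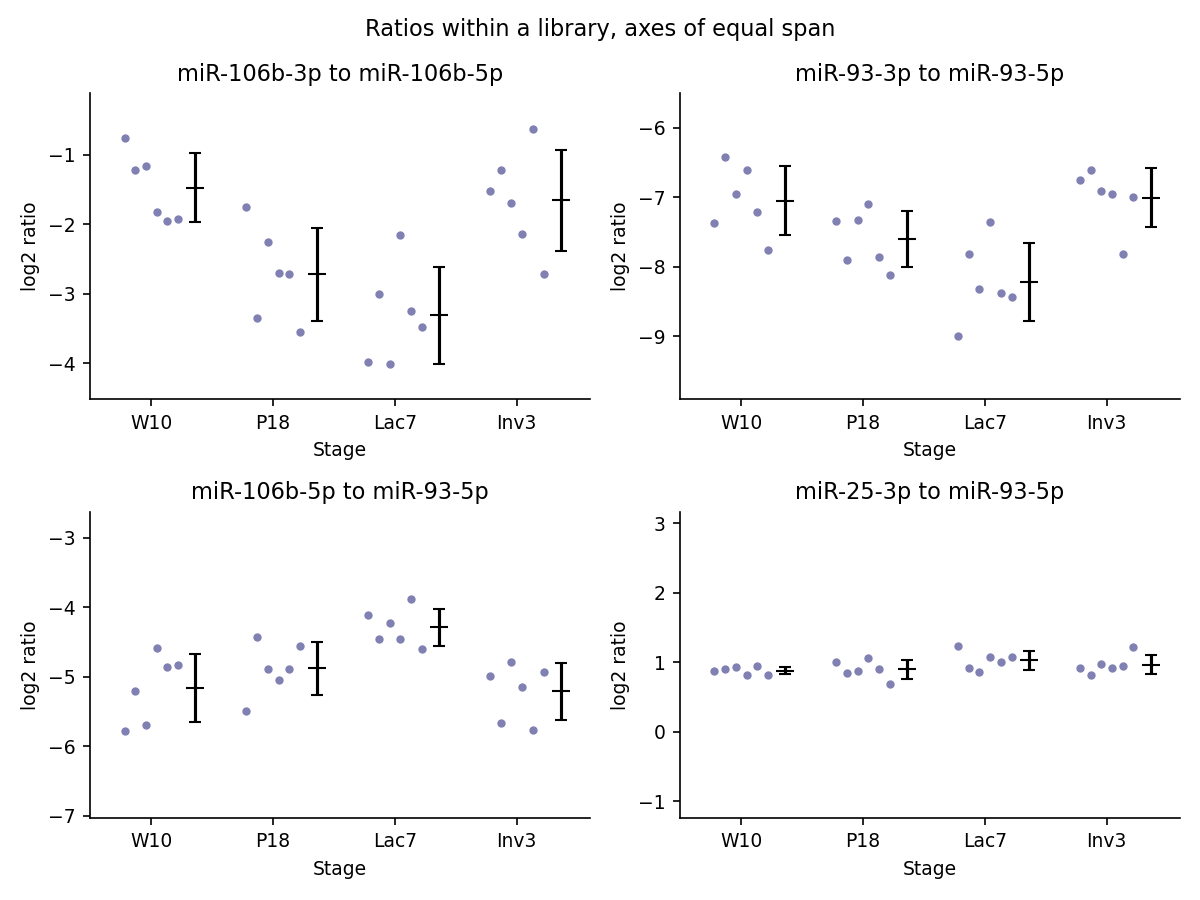
Log2 ratios of RPM within each library (1 RPM added for miR-93-3p to miR-93-5p), 6 mice per stage (points) with the mean and SD (black), on axes of equal span. The ratio of miR-25-3p to miR-93-5p moves least, while both ratios of a 3p to a 5p strand are lowest at Lac7 and miR-106b-5p to miR-93-5p is highest there.

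The seed families show what share of the reads with a common seed came from this intron. miR-93-5p and miR-106b-5p were set against the reads of 6 miRNAs with the seed AAAGUGC (a seventh name in RefSeq, miR-6383, was not used here). They held 87.7% ± 2.39 (SD, n = 6) of the family in the W10 gland, 87.0% ± 1.45 in pregnancy, 86.5% ± 1.46 in lactation and 87.9% ± 2.22 in involution. No pair of stages passed (exact permutation tests, adjusted p from 0.446 to 0.868). The family's sum nevertheless went from 4156 ± 200.5 RPM at W10 to 6764 ± 624 at P18 and 2850 ± 267 at Lac7. In that family all 6 miRNAs were lower at Lac7 than at P18, as 31.4% of all miRNAs were, with a median log2 fold change of -1.23 against -0.34 over all miRNAs.

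The rest of the family had a smaller share. miR-20a-5p of the miR-17-92 cluster held 7.96% ± 1.78 at W10 and 11.2% ± 1.05 at Lac7. miR-20b-5p of the miR-106a-363 cluster held 2.01% ± 0.436 at W10 and 0.218% ± 0.264 at Lac7. From W10 to P18 their levels went in opposite directions. miR-20a-5p was higher at P18 than at W10 by a log2 fold change of 1.15 (adjusted p = 4.91e-06), and miR-20b-5p was lower by -1.61 (adjusted p = 0.00108). From P18 to Lac7 both fell, by -1.17 and -2.42, the second on 1 to 16 reads per library at Lac7 with a median of 2.905 RPM. The level of miR-20a-5p at Lac7 differed from W10 by -0.03 in RPM (limma, adjusted p = 0.896), so on that scale its larger share was not a higher level. With size factors the difference was 0.53, so this answer depended on the scaling. miR-106b-5p held 2.48% ± 0.735 at W10 and 4.26% ± 0.744 at Lac7.

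The share of miR-25-3p in its own family changed with the stage. It was 77.1 to 85.6% at W10 (median 83.2%), 90.2 to 92.8% at P18 (median 91.6%), 86.3 to 89.9% at Lac7 (median 87.2%) and 88.0 to 92.4% at Inv3 (median 91.96%). Every mouse of the other stages was above every W10 mouse, and every P18 mouse was above every Lac7 mouse. The mean share was higher by 9.06 percentage points at P18 than at W10, by 5.13 at Lac7 and by 8.31 at Inv3, and it was lower by -3.92 at Lac7 than at P18 (exact permutation tests, adjusted p = 0.00649 for each). Lac7 and Inv3 differed by 3.18 points (exact permutation test, adjusted p = 0.0468), which was lost without any one of 9 mice, and P18 and Inv3 by -0.74 (exact permutation test, adjusted p = 0.580).

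The other members of that family moved in their own ways. miR-92a-3p, which is made by both paralogous clusters, went from 975 ± 280 RPM at W10 to 593 ± 167 at P18 and 127 ± 23.6 at Lac7, and its share from 12.2% to 5.05% and 2.33%. miR-32-5p, from chromosome 4, was higher at Lac7 than at P18 by a log2 fold change of 0.58 (adjusted p = 0.0136), and its share was 10.0% ± 1.64 at Lac7 against 3.30% ± 1.18 at P18. The miRNA that shared the seed with miR-25-3p at W10 was thus mainly miR-92a-3p, and at Lac7 mainly miR-32-5p. Of the 6 miRNAs with this seed, miR-367-3p was not analysed here, and miR-92b-3p was at 0 to 2 reads per library.

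**Figure D5:**
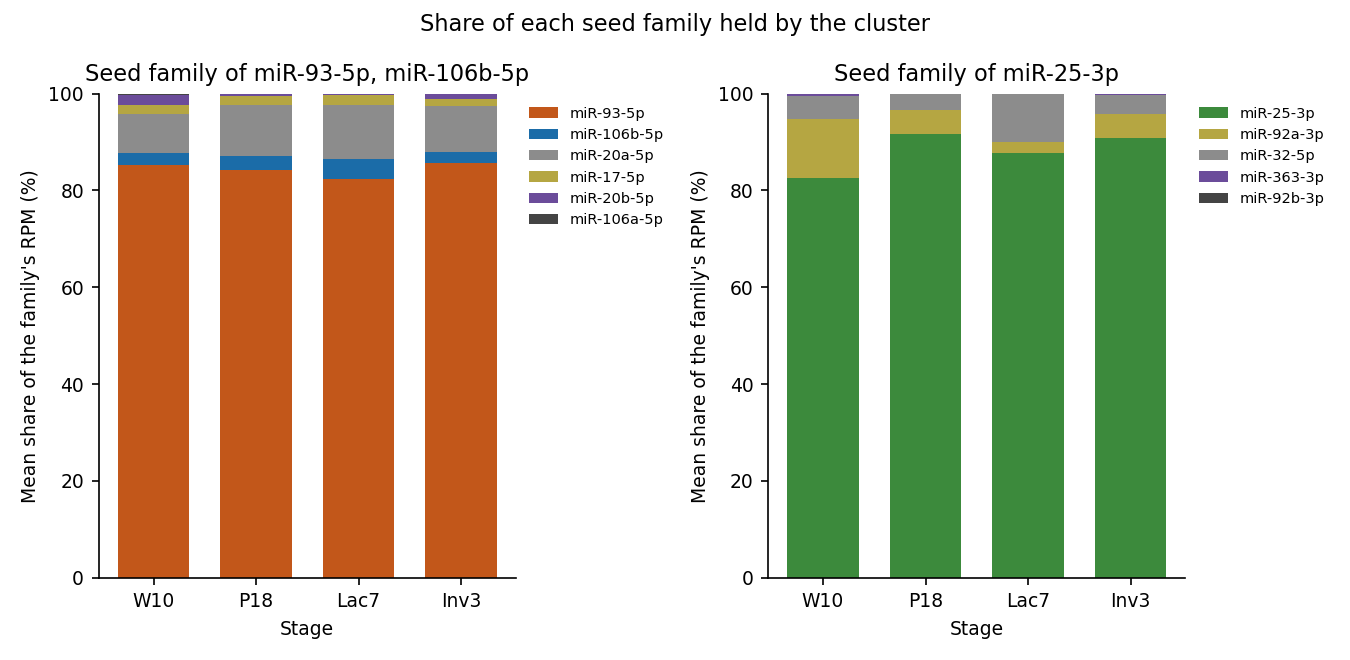
Mean share of each miRNA (%) in the summed RPM of its seed family at the 4 stages (n = 6 mice each), for the family of miR-93-5p and miR-106b-5p (left) and that of miR-25-3p (right). The cluster holds 86.5 to 87.9% of the first at every stage, and miR-25-3p 82.5% of the second at W10 and 91.6% at P18.

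The miR-17-92 cluster, the paralog best known as an oncogene of lymphomas, was the main comparison for the whole cluster. The sum of the 4 members was 2.28 to 3.87 times the sum of 6 miR-17-92 arms (miR-17-5p, 18a-5p, 19a-3p, 20a-5p, 19b-3p and 92a-3p) at W10 (median 2.85), 2.96 to 5.32 times at P18 (median 4.21), 3.80 to 4.86 times at Lac7 (median 4.22) and 2.93 to 4.30 times at Inv3 (median 3.33). The ranges overlapped between all stages. The log2 ratio was higher at P18 than at W10 by 0.49 (exact permutation test, adjusted p = 0.0433) and at Lac7 than at W10 by 0.52 (exact permutation test, adjusted p = 0.0260), and it was lower at Inv3 than at Lac7 by -0.31 (exact permutation test, adjusted p = 0.0433). These sums are dominated by miR-25-3p and miR-93-5p on one side and by miR-19b-3p on the other. The 6 arms include miR-92a-3p, which the miR-106a-363 cluster also makes. Its mean was 975 RPM at W10 and 127 at Lac7, within mean sums of 3501 and 1721 RPM. With the mean of the log2 values in place of the sums, the 3 differences were -0.03, 0.09 and 0.04, and none passed. The differences in the sums were lost when any one of 9, 3 and 7 mice, in this order, was left out.

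The arms of the miR-17-92 cluster also differed among themselves. Of its 12 arms tested, 4 were higher and 1 lower at P18 than at W10, where 12.1% of all miRNAs were higher and 29.4% lower. None was higher and 11 were lower at Lac7 than at P18, against 13.8% and 31.4% of all miRNAs, with a median log2 fold change of -1.05 against -0.34 over all miRNAs. miR-18a-5p was higher at P18 than at W10 by a log2 fold change of 1.72 (adjusted p = 9.56e-07) and miR-92a-3p was lower by -0.70 (adjusted p = 0.0180). miR-17-3p, the 3p strand of the first hairpin of that cluster, was lower at Lac7 than at P18 by -2.29 (adjusted p = 1.50e-10) and higher at Inv3 than at Lac7 by 1.98 (adjusted p = 3.04e-09). Of the 4 miR-106a-363 arms that could be tested, 3 were lower at P18 than at W10 (29.4% of all miRNAs) and all 4 were lower at Lac7 than at P18 (31.4% of all). At Lac7, miR-106a-5p had 0 to 1 reads per library, miR-363-3p 0 to 3, miR-18b-5p 0 and miR-20b-5p 1 to 16. Among the miR-17-92 arms lower there, miR-19b-1-5p had 0 reads, miR-18a-3p 0 to 3, and miR-20a-3p and miR-92a-1-5p 2 to 4. The calls on these arms rest on Lac7 values at or near the floor. The median of miR-20b-5p was 2.905 RPM there, under the Lac7 floors of 3.99 to 4.54 RPM, although its highest mouse had 21.28 RPM.

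Whether mice with more of one member also had more of another was asked with the stage means subtracted. Over 24 mice, miR-93-5p and miR-25-3p had a Pearson r of 0.443 (100000 permutations within stages, p = 0.0486, adjusted p = 0.291 over 6 pairs) and a Spearman rho of 0.351 (permutation p = 0.130). Without the 2 mice farthest from the median, r was 0.351. Within stages r was 0.888 for W10, 0.629 for P18, 0.0241 for Lac7 and -0.228 for Inv3, so the pooled value joins unlike stages. miR-106b-5p and miR-106b-3p, the strands of 1 hairpin, had a Pearson r of -0.239 (permutation p = 0.265, adjusted p = 0.530) and a Spearman rho of -0.223 (permutation p = 0.301). None of the 6 pairs passed on RPM. Scaled by size factors, 4 of them did by Pearson's r and 1 by Spearman's rho. miR-93-5p with miR-25-3p then had an r of 0.531 (permutation p = 0.0173, adjusted p = 0.0416) and a rho of 0.470 (permutation p = 0.0343, adjusted p = 0.0685), and the pair that passed by both was miR-106b-5p with miR-25-3p, at an r of -0.600 (permutation test, adjusted p = 0.0350) and a rho of -0.624 (permutation test, adjusted p = 0.0279).

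The miRNAs whose levels over the 24 mice were most like the mean standardized level of the 4 members were taken from 177 candidates outside these clusters with at least 100 RPM at 1 or more stages, as a description. They were miR-204-5p (Pearson r = 0.93), miR-431-5p (0.85), miR-138-5p (0.83), miR-434-5p (0.81) and miR-379-5p (0.80). miR-204-5p, encoded in an intron of a TRP channel gene, had a mean of 161 ± 65.4 RPM for W10, 417 ± 81.5 for P18, 35.6 ± 14.2 for Lac7 and 63.4 ± 24.2 for Inv3. miR-431-5p, miR-434-5p and miR-379-5p come from the imprinted Dlk1-Dio3 region, a large cluster of miRNAs expressed from the maternal chromosome. The mice of all stages are pooled in these r values, so the stage means enter them.

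The glands were homogenized whole, so fewer cells of a type and less RNA per cell cannot be told apart. Markers of the cell types of the gland differed between stages. The 6 epithelial miRNAs of the miR-200 family and miR-205 summed to a median of 16563 RPM in W10, 58513 in pregnant, 119908 in lactating and 45643 in involuting mice, and the Inv3 mice ranged from 24194 to 78695. miR-200a-3p and miR-200b-3p carried most of this sum. miR-205-5p of the same list went the other way, with means of 437, 461, 154.8 and 688 RPM at W10, P18, Lac7 and Inv3, and was lower at Lac7 than at P18 by a log2 fold change of -1.57 (adjusted p = 9.03e-06), as the members were. The 5 stromal miRNAs summed to a median of 177497 RPM in W10, 199580 in pregnant, 160808 in lactating and 293292 in involuting mice, a sum that miR-143-3p dominated. Of these 5, 1 was higher and 3 lower at P18 than at W10, against 12.1% and 29.4% of all miRNAs. At Lac7, 3 were lower than at P18 (31.4% of all miRNAs), among them miR-199a-3p by a log2 fold change of -1.37 (limma, adjusted p = 1.01e-09). The 2 lymphocyte miRNAs were highest at W10 (869 to 1689 RPM) and lowest at Lac7 (37.5 to 201), and the 2 myeloid ones went from 4064 to 8201 RPM at W10 to 1135 to 2378 at Lac7. The 3 skeletal muscle miRNAs ranged from 2308 to 22907 RPM among the W10 mice and from 104 to 4843 at Lac7. The 4 red blood cell miRNAs measured summed to medians of 1213, 531, 995 and 867 RPM at W10, P18, Lac7 and Inv3. Of these, miR-144-3p had its highest mean at Lac7 (323 RPM), while miR-451a, miR-144-5p and miR-486a-5p had theirs at W10 (998, 58.3 and 62.5 RPM). The medians of the 2 endothelial ones were 15626 to 18470 RPM. No measured miRNA of these lists was at 0 in all mice of a stage, and the part of these cell types in the members' levels was not tested.

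The start of Mcm7 was searched for the E2F motif, since E2F factors are known to drive this gene in dividing cells. The letters TTTCGCGC and TTTGGCGC were searched on both strands in the windows of 300 bases around annotated starts, where 267 of 32851 windows (0.813%) held at least 1 of them. Of the 2 Mcm7 windows, the one around the start at position 138171883 held 1 match, which began 16 bases after the start, and the other held none. The stretch at chr5:138171849-138171878 (minus strand, RefSeq, GRCm38.p6), with the match in capitals, is shown because an annotated start of Mcm7 lies beside it. Whether the transcripts that hold the hairpins begin there was not examined.
Mcm7 start: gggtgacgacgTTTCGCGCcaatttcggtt
A match of letters is no evidence of binding, and neither E2F nor Mcm7 mRNA was measured in these libraries.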

How the data were processed

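Small RNA of 24 mammary glands was sequenced by the authors from QIAseq libraries. Per the paper, reads were assigned with QuickMIRSeq to miRBase 22, and the submitters' processing notes name GRCm38, cutadapt, FastQC, MultiQC and Trimmomatic 0.36. The deposited values are RPM, reads per 1000000 reads on the 1009 listed miRNAs, and whether molecular identifiers were counted is not given in the sources used here. All values of a library were whole multiples of 1 step (tolerance 0.006 RPM), and 100% came back as whole reads. Floors cover counting error only, while the intervals of the log2 fold changes come from the limma fit and include the spread between mice. No library was left out, and no 2 libraries of a stage agreed within sampling noise (lowest chi-square per degree of freedom 11.0 over 60 pairs).

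miRNAs were kept where any stage mean reached 1 RPM, which left 544, and these entered limma 3.58.1 (R 4.3.3, eBayes with a trend) on log2(RPM + 1) in one fit of 24 libraries, with Benjamini-Hochberg adjustment in each comparison. The added 1 shrinks the log2 fold changes of low miRNAs. The paper used DESeq2, but a count test was not the main test because the file holds RPM. edgeR 4.0.16 and DESeq2 1.42.0 on the recovered reads were alternatives. Ratios within a library and shares were compared by exact permutation with scipy 1.17.1. The scripts were tested on simulated data. Other tools were python 3.11.15, numpy 2.4.6, pandas 2.3.3 and matplotlib 3.10.9.

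The named miRNAs were the 4 members, the other arms of their hairpins, the seed families, the arms of the miR-17-92 and miR-106a-363 clusters, and the 5 miRNAs most like the members. The members and all lists were chosen with earlier results of these data known. The ratios with miR-93-3p and the ranks over hairpins were added after values had been seen. Of the 15 mature names looked up, 15 were found in RefSeq. Mouse numbers were not taken to mark pairs. The 33 same-numbered pairs of libraries correlated by -0.05 on average (-0.79 to 0.61), and 13 of them by over 0.1. Whether a number marks a link between libraries was not tested.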

Additional observations from a re-analysis of the deposited data

Results flagged for a closer look

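Among the 44 groups of 6 mice examined for the 4 members, the ratios, the shares and the comparison with miR-17-92, 1 held a mouse that stood far from the others by Dixon's test at the 95% level, where chance alone flags about 1 group in 20. The level of miR-25-3p in Inv3 mouse 6 was 6501 RPM, the highest of its group, and the nearest mouse had 5776 RPM. Without that mouse, the increase of miR-25-3p from Lac7 to Inv3 no longer passed.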

How the results depend on the processing

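The higher levels of miR-106b-5p, miR-93-5p and miR-25-3p at P18 against W10 and against Inv3, and the falls of miR-93-5p, miR-25-3p and miR-106b-3p from P18 to Lac7, kept their direction and stayed past the threshold under every alternative run (pseudocounts of 0.1 and 10, no filter, a filter at 100 RPM where the miRNA was kept, size factors, TMM, edgeR, DESeq2, the 12 libraries alone, the replicate block and each mouse left out). The fall of miR-106b-5p from P18 to Lac7 was lost with size factors (-0.38) and DESeq2 (-0.39). For Lac7 against W10, size factors, TMM, edgeR and DESeq2 gave 0.82, 0.70, 0.72 and 0.80 for miR-106b-5p, all past the threshold, and -0.0433, -0.161, -0.142 and -0.0455 for miR-93-5p and 0.106, -0.0120, 0.0048 and 0.102 for miR-25-3p, none past it. For Inv3 against W10, miR-93-5p turned to 0.10, 0.13, 0.13 and 0.10 under the same 4, and fell short in the 12 libraries alone (-0.28, adjusted p = 0.0675), while miR-25-3p passed with the filter at 100 RPM (-0.19). The rise of miR-93-5p from Lac7 to Inv3 was lost with size factors (0.15) and DESeq2 (0.15), and that of miR-25-3p with no filter (0.26), size factors (0.0834), TMM (0.23), edgeR (0.21) and DESeq2 (0.0835). The cause was not tested.

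With the replicate block, no call on a member's level changed, although the numbers were not taken to pair the mice. For the ratios, the replicate block was a sign-flip test that could not reach the threshold with so few pairs (lowest adjusted p = 0.188): miR-106b-3p to miR-106b-5p gave -1.17 at P18 against W10, 1.66 at Inv3 against Lac7 and -1.90 at Lac7 against W10, miR-106b-5p to miR-93-5p gave 0.59 at Lac7 against P18, -0.92 at Inv3 against Lac7 and 0.995 at Lac7 against W10, and miR-25-3p to miR-106b-5p gave 0.86 and -0.87 at Inv3 against Lac7 and Lac7 against W10. With 10 RPM added, miR-106b-3p to miR-106b-5p passed at Inv3 against P18 (1.03). Without family members under 100 RPM, the share of miR-93-5p and miR-106b-5p was lower at Lac7 than at W10 by -3.10 points and passed. The ratio of the cluster to miR-17-92 was -0.0336, 0.0435 and 0.0864 for P18 against W10, Inv3 against Lac7 and Lac7 against W10 with the mean of log2 values. With size factors the correlations of miR-93-5p with miR-106b-5p (-0.494), miR-106b-3p (0.448) and miR-25-3p (0.531) and of miR-106b-5p with miR-25-3p (-0.600) passed.

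Leaving out 1 mouse changed no direction of a result past the threshold. Among the members' levels, miR-106b-5p at Inv3 against Lac7 ranged from -0.67 to -0.47 and was lost without Lac7 mouse 5 or Inv3 mouse 5, and miR-25-3p there ranged from 0.22 to 0.28 and was lost without Inv3 mouse 6. miR-106b-3p to miR-106b-5p ranged from -1.44 to -1.08 at P18 against W10, lost without W10 mouse 1, 2 or 3, and from 0.86 to 1.28 at Inv3 against P18, gained without P18 mouse 1 or Inv3 mouse 6. miR-106b-5p to miR-93-5p at Lac7 against P18 ranged from 0.47 to 0.68 (lost without P18 mouse 1, 3, 4 or 5 or Lac7 mouse 1 to 5), miR-25-3p to miR-106b-5p at Lac7 against W10 from -0.85 to -0.60 (W10 mouse 1 to 3 or Lac7 mouse 1 to 5), the share of miR-25-3p at Inv3 against Lac7 from 2.87 to 3.75 points (Lac7 mouse 1 to 5 or Inv3 mouse 3 to 6), and the ratio to miR-17-92 from 0.41 to 0.58 at P18 against W10 (W10 mouse 2, 4, 5 or 7 or P18 mouse 1 to 5), -0.38 to -0.27 at Inv3 against Lac7 (Lac7 mouse 1, 2 or 6 or Inv3 mouse 1, 3, 4 or 6) and 0.45 to 0.60 at Lac7 against W10 (Lac7 mouse 1, 2 or 6). That ratio ranged from -0.37 to -0.20 at Inv3 against P18 and passed without P18 mouse 6, and miR-25-3p to miR-93-5p ranged from 0.11 to 0.18 at Lac7 against W10 and passed without Lac7 mouse 3. Among the arms of the miR-106b-25 cluster, depth limits miR-106b-3p, miR-93-3p and miR-25-5p, whose Lac7 libraries held at most 18, 10 and 2 reads.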
